A study of Mus musculus with 40 samples.

Results

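In the ileum of mice that had undergone small bowel resection (SBR), transcripts after treatment with WUSTL0717 were compared with those after vehicle. The 8 libraries compared, 4 of each treatment, were taken by tissue, surgery and treatment from the 40 libraries of the series, and 3 ileum libraries of sham-operated mice given vehicle are set beside them. All mice were wild type C57BL/6 males operated on at 8 weeks of age. In the SBR groups 50 to 60% of the small bowel was removed according to the labels of the samples, while the methods of the study give a larger extent, and the ileum was sampled distal to the anastomosis. WUSTL0717 (30 mg/kg) or vehicle was given once daily by mouth for 7 weeks, beginning 3 weeks after surgery, so that tissue was taken at 10 weeks. WUSTL0717 is an agonist of the liver X receptors (LXRs), an amide analog of GW3965 intended to act within the gut. The labels do not say which animal gave each library, so p-values measure the spread between these libraries.

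LXRα (*Nr1h3*) and LXRβ (*Nr1h2*) are nuclear receptors that sense oxysterols and bind DNA together with a retinoid X receptor. Their classical targets move sterols out of cells (*Abca1*, *Abcg1*, *Abcg5*, *Abcg8*), load and remodel lipoproteins (*Apoe*, *Apoc1*, *Pltp*, *Lpcat3*) and, through the transcription factor SREBP-1c from *Srebf1*, turn on the synthesis of fatty acids. In enterocytes *Abca1* supports the formation of high-density lipoprotein, and the *Abcg5* and *Abcg8* products together return sterols to the lumen.

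Values are log2 TPM after the batch correction of the authors. TPM is transcript abundance scaled to a fixed total, and a difference of 1 on the log2 scale is a 2-fold change. The correction shifted and scaled each gene, so levels were compared within a gene and not between genes. Transporters that mark the ileum identified the tissue. *Slc10a2*, the bile acid uptake transporter, lay between 4.42 and 7.19 in the 11 ileum libraries and between 0.53 and 0.95 in the 11 duodenum libraries, and *Fabp6*, the ileal bile acid-binding protein, between 5.87 and 8.54 against between -1.69 and 0.53. The table holds no read counts, and the depth behind each value is therefore unknown. Summed TPM, here and for gene lists, was obtained by raising 2 to each value and taking off 1, an assumed pseudocount. Such sums weight genes by their corrected levels and serve only to set libraries side by side. Over all genes the sum was between 618212 and 710254 in 10 ileum libraries and 807720 in WUSTL0717 library 2. That library stood apart from the rest in markers of other tissues, described further on, and results are given with and without it.

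Of 15958 genes in the table, the 15772 with a mean of at least 1 over the 11 ileum libraries were tested. WUSTL0717 raised 11 genes and lowered none past an adjusted p of 0.05, which is 0.0697% of the genes tested (limma with Benjamini-Hochberg adjustment on the 3 ileum groups). They were the sterol transporters *Abca1*, *Abcg1* and *Abcg5*, the apolipoprotein gene *Apoc1*, the lipogenic regulator *Srebf1*, the stearoyl-CoA desaturases *Scd1* and *Scd3*, the acyl-CoA synthetase *Acsl3* with the overlapping *Utp14b*, the carboxylesterase *Ces2a* and the class I histocompatibility gene *H2-Q10*. At an unadjusted p under 0.05, 650 genes were higher (4.12%) and 433 were lower (2.75%), together 1083 (6.87%). In 404 genes (2.56%) all 4 treated libraries lay above all 4 vehicle libraries, in 200 genes (1.27%) they lay below, and together these were 604 genes (3.83%). In each of 3 other fits (the 8 SBR libraries without sham, an unmoderated test, and the replicate number as a block) *H2-Q10* was the 1 gene that passed, and the other 10 calls were lost. These are bulk tissue values, in which more cells of a type and more RNA per cell cannot be told apart. When each of the 11 libraries was left out in turn, between 2 and 12 genes passed, and *H2-Q10* and *Ces2a* passed in each of the 11 fits. *Abca1* passed in 7 fits, *Scd1* in 5, *Apoc1* and *Utp14b* in 3, *Abcg5* in 2, and *Srebf1*, *Abcg1*, *Scd3* and *Acsl3* in 1. Without vehicle library 1, vehicle library 2 or WUSTL0717 library 4, 2 genes passed, and without sham library 1 or WUSTL0717 library 3, 3 genes passed. Without sham library 2 or vehicle library 4 it was 4 genes, without vehicle library 3 it was 5 and without sham library 3 it was 7.

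Because several of the 11 genes are classical LXR targets, their promoters were searched for the sequence that LXR and its partner bind, AGGTCA, then 4 bases of any kind, then AGGTCA again. RefSeq promoter sequence (GRCm38.p6, the 250 bases before the start) was at hand for 9653 of the 15772 tested genes (61.2%) and for 8 of the 11 called genes, all but *Scd1*, *Apoc1* and *Abcg1*. On either strand the exact sequence was in 0 of the 9653 promoters (0%), and a looser form with any base at the 4th and 5th position of each AGGTCA was in 228 (2.36%), none of them of a called gene. After this search, up to 3 of the 12 letters were allowed to differ, and 1812 promoters (18.8%) then held a match, among them those of *Ces2a*, *Abca1*, *Scd3*, *Srebf1* and *Acsl3*, 5 of the 8. The stretches below are shown because those of *Abca1*, *Srebf1*, *Acsl3* and the fatty acid synthase gene *Fasn* hold nearly the same match. Each is written 5′ to 3′ on the strand of the gene, and capitals mark the match, which reads as the motif on the opposite strand.
Abca1: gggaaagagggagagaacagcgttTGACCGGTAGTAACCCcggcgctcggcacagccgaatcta
Srebf1: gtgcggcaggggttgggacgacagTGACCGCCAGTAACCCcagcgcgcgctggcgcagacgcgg
Acsl3: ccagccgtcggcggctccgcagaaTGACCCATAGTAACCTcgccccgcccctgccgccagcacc
Fasn: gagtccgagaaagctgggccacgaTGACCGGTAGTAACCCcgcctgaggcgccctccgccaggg

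The *Abca1* stretch is chr4:53159923-53159986 on the minus strand, with the match 67 to 52 bases before the start. The *Srebf1* stretch is chr11:60210614-60210677 on the minus strand, 182 to 167 bases before a start that lies inside the gene. The *Acsl3* stretch is chr1:78657689-78657752 on the plus strand, 112 to 97 bases before the start, and its match differs from the motif in 2 of 12 letters, whereas the other 3 differ in 3. The *Fasn* stretch is chr11:120824733-120824796 on the minus strand, 225 to 210 bases before the start. Read on the opposite strand, the 4 sites share GGTTACTNNNGGTCA, 15 letters of which 12 are fixed. These letters were taken from the 4 sites, so the 4 promoters hold them by construction, and on both strands they were in no other promoter of the 9653 (4 genes, 0.0414%). A match is a run of letters and was not tested as a binding site.

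Of the sterol efflux genes, the transporters *Abca1*, *Abcg1* and *Abcg5* and the apolipoprotein *Apoc1* rose. *Abca1* (chromosome 4, 53030787 to 53159895, in GRCm38), which loads cholesterol and phospholipid onto apolipoprotein A-I, was 4.85, 4.07, 4.78 and 4.90 with vehicle and 6.55, 7.97, 7.43 and 7.81 with WUSTL0717, against 5.60, 6.22 and 6.21 in sham. The treated libraries lay above every vehicle and sham library, and vehicle libraries lay below sham. It rose by 2.79 on the log2 scale over vehicle (standard error, SE, 0.34, limma adjusted p = 0.0165), and without WUSTL0717 library 2 it was 2.61 (limma adjusted p = 0.0318). Vehicle against sham differed by -1.36 (limma adjusted p = 0.198).

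*Abcg1* (chromosome 17, 31057675 to 31117988), which passes cholesterol to lipoprotein particles, was 2.42, 2.50, 2.90 and 2.33 with vehicle and 3.84, 5.50, 4.85 and 5.15 with WUSTL0717. It rose by 2.30 (SE 0.33, limma adjusted p = 0.0304), and 2.08 without library 2 (limma adjusted p = 0.0653). *Abcg5* (chromosome 17, 84658234 to 84683011) was 5.84, 5.42, 5.07 and 5.93 with vehicle and 7.23, 8.76, 8.12 and 8.88 with WUSTL0717. In both genes every treated library lay above every vehicle library, and the lowest treated value came from library 1 in both. *Abcg5* rose by 2.68 on the log2 scale (SE 0.36, limma adjusted p = 0.0233), and without library 2 the change was 2.51 (limma adjusted p = 0.0603). Its partner *Abcg8* (chromosome 17, 84676302 to 84700333) lies on the opposite strand and overlaps it, and whether reads were counted by strand is not given in the sources used here, so their reads may not be separable. *Abcg8* was 5.75, 5.19, 4.88 and 6.25 with vehicle and 6.70, 8.75, 8.31 and 8.70 with WUSTL0717. The groups did not overlap, and the change of 2.60 had a limma adjusted p of 0.1. *Abcg8* passed in 1 of 11 alternative fits (a filter at a mean of 3) and in 1 of 11 fits with a library left out (WUSTL0717 library 1).

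*Apoc1* (chromosome 7, 19689481 to 19692660), an exchangeable apolipoprotein of triglyceride-rich particles, had the widest change of the 11 genes in the fit of all libraries. Without WUSTL0717 library 2 that of *Srebf1* was wider, at 3.23. The values of *Apoc1* were 5.89, 6.58, 6.39 and 6.75 with vehicle and 9.95, 11.58, 8.85 and 9.69 with WUSTL0717, against 5.46, 5.20 and 6.13 in sham. All treated libraries lay above all others, and library 2 was the highest. It rose by 3.62 on the log2 scale (SE 0.49, limma adjusted p = 0.0233) and without library 2 it was 3.10 (limma adjusted p = 0.0184).

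The list of LXR targets of sterol efflux and lipoprotein handling had 24 tested genes, of which 4 rose past the adjusted threshold and 0 fell. At an unadjusted p under 0.05, 13 were higher and 0 lower (4.12% and 2.75% over all genes), and in 9 the treated libraries lay above the vehicle libraries (2.56% over all genes). The median log2 fold change of the list was 0.79, against 0.00312 over all 15772 genes. Without library 2 the median was 0.68, against -0.12 over all genes. *Mylip*, a ubiquitin ligase that degrades the low-density lipoprotein receptor, changed by 2.30 (limma adjusted p = 0.345), and *Apoe* by 2.17 (limma adjusted p = 0.4). *Lpcat3*, which makes polyunsaturated phospholipids, changed by 1.65 (limma adjusted p = 0.345), with 1 vehicle library at 7.21 above the lowest treated library at 7.14. Lipoprotein lipase (*Lpl*) was 3.36, 6.06, 3.57 and 3.68 with WUSTL0717, so library 2 stood above the other 3, and its change of 1.71 was 1.08 without that library.

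The receptors themselves were in a list of 20 receptors, partners and coregulators, of which 0 passed the adjusted threshold and 1 was higher at an unadjusted p under 0.05 (2 without WUSTL0717 library 4), near the 4.12% over all genes. That gene was *Nr1h3*, with 6.34, 5.41, 5.27 and 6.55 under vehicle and 6.52, 6.97, 7.26 and 7.34 under WUSTL0717 (change 1.13, limma adjusted p = 0.548). The groups overlapped by 1 library. *Nr1h2* changed by 0.20 (SE 0.37) and *Rxra* by 0.50 (SE 0.39). Retinoid X receptor gamma (*Rxrg*) was 3.65 in WUSTL0717 library 2 and between 0.82 and 1.82 in the other 10 libraries.

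**Figure D1:**
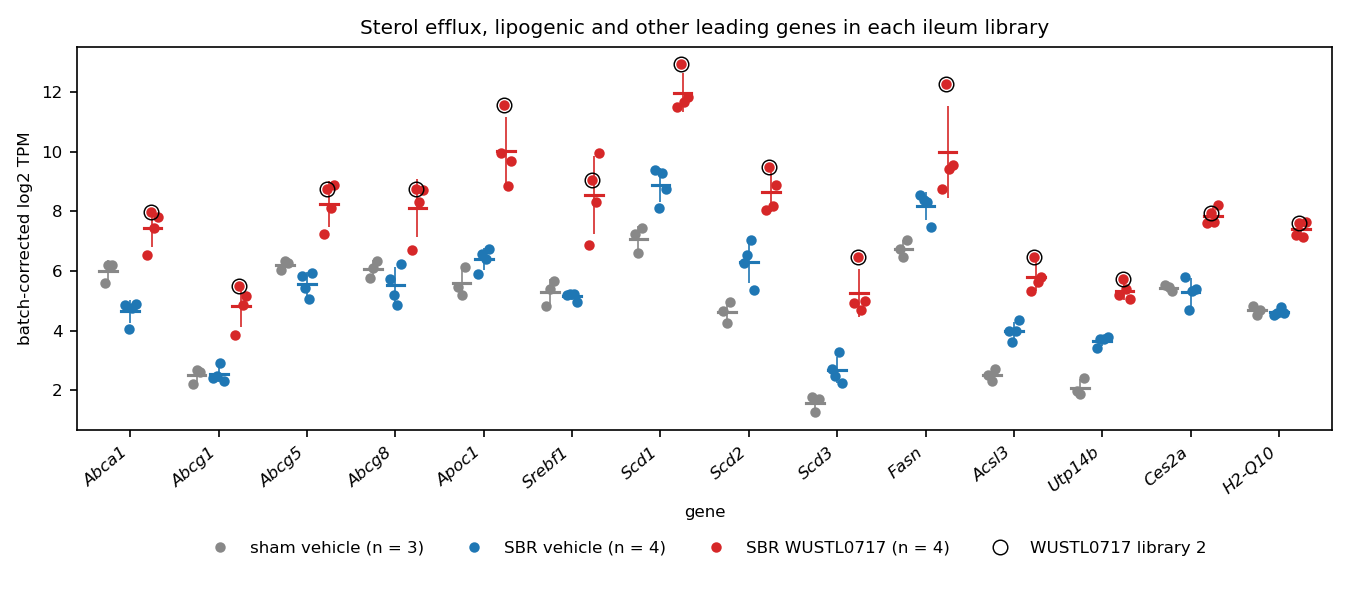
Batch-corrected log2 TPM (vertical axis) of 14 sterol efflux, lipogenic and other leading genes (horizontal axis) in each ileum library, with grey for sham vehicle (n = 3), blue for SBR vehicle (n = 4) and red for SBR WUSTL0717 (n = 4). Points are libraries, short bars are means, vertical lines are the SD and rings mark WUSTL0717 library 2. In each gene the treated points lie above the vehicle points, and *Fasn* is 12.26 in the ringed library against 8.76 to 9.55 in the other treated libraries.

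Of the fatty acid synthesis genes, the regulator *Srebf1* and the desaturases *Scd1* and *Scd3* rose. *Srebf1* (chromosome 11, 60199089 to 60222581) was 5.21, 5.23, 5.25 and 4.96 with vehicle and 6.89, 9.05, 8.31 and 9.97 with WUSTL0717. Sham libraries, at 4.84, 5.40 and 5.68, lay around the vehicle values, and each treated library lay above both control groups. The change was 3.39 (SE 0.52, limma adjusted p = 0.0427), and 3.23 without library 2 (limma adjusted p = 0.125).

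*Scd1* (chromosome 19, 44394455 to 44407879), which desaturates stearoyl- and palmitoyl-CoA, was 9.37, 8.12, 9.30 and 8.76 with vehicle and 11.50, 12.92, 11.66 and 11.84 with WUSTL0717, against 7.23, 6.61 and 7.43 in sham. The 3 groups did not overlap and stood in the order sham, vehicle, WUSTL0717. The change over vehicle was 3.09 (SE 0.40, limma adjusted p = 0.022) and without library 2 it was 2.78 (limma adjusted p = 0.0312), whereas vehicle against sham was 1.80 (limma adjusted p = 0.136). *Scd3* (chromosome 19, 44203269 to 44244016) was 2.72, 2.49, 3.27 and 2.24 with vehicle and 4.94, 6.46, 4.69 and 4.99 with WUSTL0717. It rose by 2.59 (SE 0.38, limma adjusted p = 0.0323), or 2.19 without library 2 (limma adjusted p = 0.0266). *Scd2* was 6.27, 6.55, 7.04 and 5.36 with vehicle and 8.06, 9.48, 8.18 and 8.89 with WUSTL0717. Its groups did not overlap, and the change of 2.35 had a limma adjusted p of 0.1. *Scd2* passed in 2 of 11 alternative fits (a filter at a mean of 3, and library weights) and in 0 of 11 fits with a library left out. The desaturase genes are close paralogs, and the study counted uniquely aligned, unambiguous reads. Reads of stretches they share may therefore be missing or assigned to another of them.

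Of 29 tested genes of fatty acid synthesis, 3 rose past the adjusted threshold, 14 were higher and 0 lower at an unadjusted p under 0.05 (4.12% and 2.75% over all genes), and in 11 the treated libraries lay above the vehicle libraries (2.56% over all genes). The median was 0.95, and 0.67 without library 2. The enzymes upstream of the desaturases were less uniform across libraries. *Fasn*, which builds palmitate, was 8.53, 8.37, 8.33 and 7.47 with vehicle and 8.76, 12.26, 9.40 and 9.55 with WUSTL0717. The change of 1.82 (limma adjusted p = 0.58) was 1.06 without library 2. *Acaca*, acetyl-CoA carboxylase, was 5.27, 7.91, 5.65 and 5.72 with WUSTL0717 against 4.85 to 5.51 with vehicle. Its change was 0.91, and 0.32 without library 2. *Acly*, ATP citrate lyase, changed by 0.28, and by -0.37 without library 2. *Thrsp*, a lipogenic cofactor, was 10.54 in library 2 and between 7.11 and 7.45 in the other treated libraries, and its change of 2.56 was 1.75 without library 2. *Me1*, which supplies NADPH, changed by 1.24 (limma adjusted p = 0.545) without overlap between groups, and the elongase *Elovl5* by 1.18 (limma adjusted p = 0.501), also without overlap. *Elovl6* changed by -0.12 (SE 0.30), and by -0.40 without library 2.

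No gene of cholesterol synthesis passed. Of 28 tested genes of cholesterol synthesis and uptake, 0 passed the adjusted threshold, 2 were higher and 3 lower at an unadjusted p under 0.05 (4.12% and 2.75% over all genes), and the median was -0.11. The count lower was between 0 and 6 when single libraries were left out, with 6 without vehicle library 4 and 0 without vehicle library 2 or WUSTL0717 library 1, and the count higher was between 0 and 2. The median was 0.01 without WUSTL0717 library 1, -0.02 without vehicle library 2, -0.23 without WUSTL0717 library 2, -0.21 without WUSTL0717 library 3 or 4, and -0.27 without vehicle library 3 or 4. *Sqle*, squalene epoxidase, changed by -0.60 (limma adjusted p = 0.709). The late-step reductases *Dhcr7* and *Tm7sf2* changed by 0.68 and 0.67 (limma adjusted p = 0.704 and 0.629).

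Of 30 apolipoprotein and chylomicron genes, 28 had positive changes and 1 passed. At an unadjusted p under 0.05, 8 were higher and 0 lower (4.12% and 2.75% over all genes), and the median was 0.62. In 4 the treated libraries lay above the vehicle libraries (2.56% over all genes), in 9 without WUSTL0717 library 2 (4.17% over all genes) and in 2 with each library centered (2.27% over all genes). The count at an unadjusted p under 0.05 was 12 without WUSTL0717 library 2, 4 without vehicle library 3 and 5 without WUSTL0717 library 3 or 4. *Apoa1*, the main protein of high-density lipoprotein, was 12.88, 12.24, 11.58 and 12.85 with vehicle and 14.25, 13.67, 14.85 and 16.12 with WUSTL0717, against 11.92, 12.87 and 14.43 in sham. Treated and vehicle libraries did not overlap, 1 sham library lay among the treated ones, and the change was 2.34 (SE 0.64, limma adjusted p = 0.455). *Apoc3*, an inhibitor of lipoprotein lipase, was 7.20, 7.28, 5.78 and 6.69 with vehicle and 8.89, 7.84, 9.54 and 10.12 with WUSTL0717. Its change was 2.36 (limma adjusted p = 0.42). Library 2 was the lowest treated library for *Apoa1* and *Apoc3*, and their changes without it were 2.69 and 2.78. *Apoa4* changed by 1.39 (limma adjusted p = 0.65) without overlap between groups. *Apob*, the scaffold of the chylomicron, changed by 0.83 (SE 0.56), and *Mttp*, which transfers lipid to it, by 0.23 (SE 0.37).

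The member of this list that passed was *Acsl3* (chromosome 1, 78657825 to 78707743), which activates long-chain fatty acids at the endoplasmic reticulum and lipid droplets. It was 4.01, 3.62, 3.99 and 4.35 with vehicle and 5.32, 6.47, 5.64 and 5.79 with WUSTL0717, against 2.50, 2.30 and 2.71 in sham. The 3 groups did not overlap. The change over vehicle was 1.81 (SE 0.28, limma adjusted p = 0.0427), or 1.59 without library 2 (limma adjusted p = 0.0576). *Utp14b* (chromosome 1, 78658038 to 78671512), a ribosome biogenesis gene, lies within *Acsl3* on the same strand, so their reads may not be separable. *Utp14b* was 3.41, 3.71, 3.72 and 3.78 with vehicle and 5.19, 5.73, 5.39 and 5.05 with WUSTL0717, against 1.97, 1.89 and 2.42 in sham. It rose by 1.68 over vehicle (SE 0.23, limma adjusted p = 0.0235), and vehicle was 1.56 above sham (limma adjusted p = 0.022).

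*H2-Q10* and *Ces2a* had the 2 smallest p-values of all genes. *H2-Q10* (chromosome 17, 35470089 to 35474563) encodes a secreted class I molecule. It was 4.52, 4.61, 4.78 and 4.60 with vehicle and 7.22, 7.61, 7.13 and 7.66 with WUSTL0717, against 4.83, 4.52 and 4.70 in sham. The 7 vehicle and sham libraries lay between 4.52 and 4.83, and all 4 treated libraries stood above 7. The change was 2.78 (SE 0.22, limma adjusted p = 0.000482), and 2.71 without library 2 (limma adjusted p = 0.00175). Of 18 tested class I genes it was the 1 that passed, and the median of the list was -0.19. The sign of that median turned with single libraries, to 0.09 without WUSTL0717 library 2 and 0.05 without vehicle library 3, and it was -0.50 without vehicle library 1, -0.46 without WUSTL0717 library 3 and -0.08 without vehicle library 2. *H2-Q4*, of the same cluster, changed by -0.95 and the shared light chain *B2m* by -0.96 (limma adjusted p = 0.839 and 0.825). Class I genes are near-identical in stretches, and the study counted uniquely aligned, unambiguous reads. Reads of *H2-Q10* from such stretches may therefore be missing or assigned to another member.

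*Ces2a* (chromosome 8, 104734003 to 104741634), a carboxylesterase that cleaves ester drugs and acylglycerols, was 5.81, 4.68, 5.34 and 5.41 with vehicle and 7.61, 7.95, 7.66 and 8.21 with WUSTL0717, against 5.52, 5.47 and 5.32 in sham. The treated libraries lay above all others, and the change was 2.54 (SE 0.28, limma adjusted p = 0.00678). Without library 2 it was 2.51 (limma adjusted p = 0.0184). Of 14 tested carboxylesterases 1 passed, and at an unadjusted p under 0.05, 5 were higher and 1 lower (4.12% and 2.75% over all genes). The neighbors *Ces2b* and *Ces2c* changed by 1.01 and 0.95 without overlap between groups (limma adjusted p = 0.205 and 0.455), and *Ces2e* by 1.26 (limma adjusted p = 0.491).

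Genes of fatty acid oxidation, drug metabolism and retinoid handling did not pass the adjusted threshold in the fit of all 11 libraries. Of 37 targets of peroxisome proliferator-activated receptors, 9 were higher and 0 lower at an unadjusted p under 0.05 (4.12% and 2.75% over all genes), in none did the groups separate, and the median was 0.27. Without vehicle library 4 the count was 14 and the median 0.58, and without vehicle library 2 or WUSTL0717 library 3 the count was 5. The count was 6 without vehicle library 1 or 3 or WUSTL0717 library 2, with a median of 0.15 without WUSTL0717 library 2 and 0.16 without vehicle library 3. *Ppara*, the receptor of that family that drives fatty acid oxidation, was 4.87, 3.16, 4.51 and 6.05 with vehicle and 5.29, 7.75, 6.62 and 6.85 with WUSTL0717 (change 1.98, limma adjusted p = 0.501). The peroxisomal thiolase *Acaa1b* was 5.60, 5.29, 4.64 and 7.35 with vehicle and between 7.32 and 8.26 with WUSTL0717. Vehicle library 4 reached the treated range for both genes. The change of *Acaa1b* was 2.06 (limma adjusted p = 0.345), and 2.60 without vehicle library 4, where it passed (limma adjusted p = 0.0244). The ω-hydroxylases *Cyp4a10* and *Cyp4f14* changed by 1.28 and 1.39 (limma adjusted p = 0.477 and 0.491).

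Of 43 xenobiotic enzymes and exporters, 12 were higher and 0 lower at an unadjusted p under 0.05 (4.12% and 2.75% over all genes), with a median of 0.47. The count was 7 without vehicle library 3 or WUSTL0717 library 3. *Cyp2c55* was 1.58, 0.52, 0.49 and 1.89 with vehicle and 2.81, 4.43, 2.54 and 3.55 with WUSTL0717. Its groups did not overlap, and the change was 2.21 (limma adjusted p = 0.231). *Cyp3a11*, a broad-range drug hydroxylase, changed by 1.84 (limma adjusted p = 0.422) and the glutathione transferase *Gsta4* by 1.23 (limma adjusted p = 0.413), both without overlap. Of 19 retinoid genes, 5 were higher and 0 lower at an unadjusted p under 0.05, against the same shares over all genes. The retinol dehydrogenase *Rdh7* changed by 2.10 (limma adjusted p = 0.537), *Retsat* by 1.03 (limma adjusted p = 0.621) and the carotenoid oxygenase *Bco2* by 0.99 (limma adjusted p = 0.624). The count of retinoid genes was 2 without vehicle library 3 and 3 without vehicle library 2 or WUSTL0717 library 3.

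Of 13 genes of bile acid transport and farnesoid X receptor signaling, 1 was higher at an unadjusted p under 0.05, where 4.12% of all genes were, so the list is near the background. The count was 3 without vehicle library 4 and 2 without WUSTL0717 library 1. The 1 gene was *Nr0b2*, encoding the corepressor SHP, with 1.87, 0.95, 1.75 and 1.88 under vehicle and 3.31, 3.76, 3.57 and 2.39 under WUSTL0717 (change 1.65, limma adjusted p = 0.31). *Slc10a2* and *Fabp6* changed by -0.18 and -0.12 (SE 0.27 for both). Against sham, vehicle libraries were higher by 2.02 in *Slc10a2* and by 2.05 in *Fabp6* (limma adjusted p = 0.0145 and 0.0137), so the ileal markers differed with surgery while the interval of each treatment change covered 0.

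**Figure D2:**
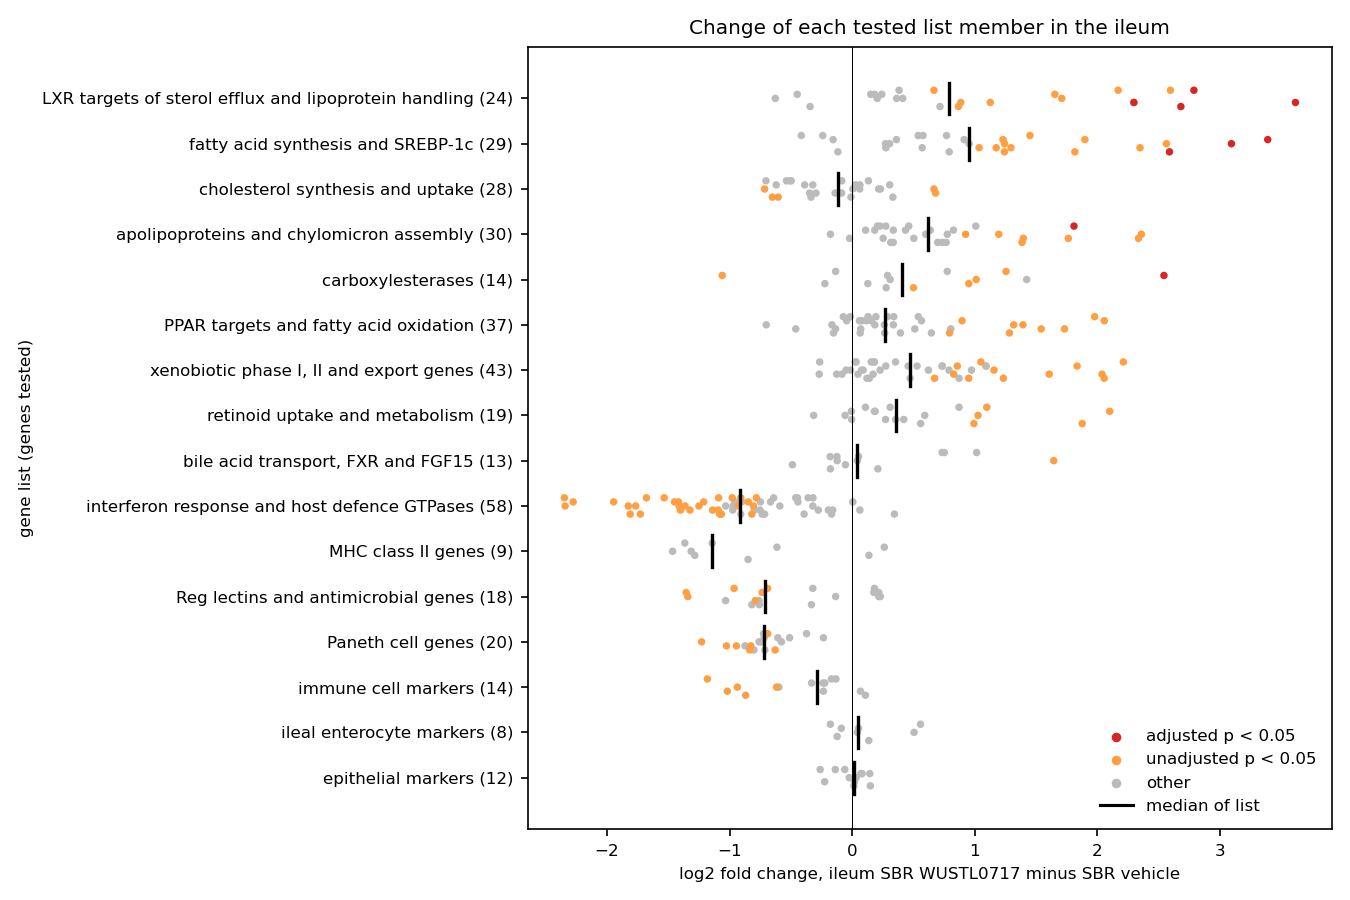
Log2 fold change of SBR WUSTL0717 over SBR vehicle in the ileum (horizontal axis) for each tested member of 16 gene lists (vertical axis, with the number of genes tested). Red points passed an adjusted p of 0.05, orange points an unadjusted p of 0.05, and black bars are list medians. The medians run from -1.14 in class II histocompatibility genes to 0.95 in fatty acid synthesis.

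On the lower side no gene passed, and *Dmbt1* came nearest. *Dmbt1*, which encodes a secreted scavenger receptor of the mucosa that binds bacteria, was 5.19, 6.01, 4.97 and 4.97 with vehicle and 3.61, 3.47, 1.75 and 1.67 with WUSTL0717, against 5.79, 5.43 and 5.58 in sham. All treated libraries lay below every vehicle and sham library. The change was -2.66 (SE 0.46, limma adjusted p = 0.0972), and without library 2 it was -2.94 (limma adjusted p = 0.0739). With a filter at a mean of 3 in place of 1 *Dmbt1* passed (2 genes lower), as it did without WUSTL0717 library 1. *Ttc39b*, a regulator of LXR protein turnover, was 3.59, 3.66, 3.82 and 4.20 with vehicle and 2.08, 3.30, 2.07 and 1.94 with WUSTL0717. Library 2 stood nearest to the vehicle values, and the change of -1.47 (limma adjusted p = 0.239) was -1.79 without it (limma adjusted p = 0.0184). *Hk2*, hexokinase 2, was 5.23, 4.98, 4.76 and 4.32 with vehicle and 3.49, 3.97, 3.34 and 3.53 with WUSTL0717. Its groups did not overlap (change -1.24, limma adjusted p = 0.239). *Gabbr2*, a GABA receptor subunit, changed by -1.21 and *Serpina3f*, a serine protease inhibitor, by -2.38 (limma adjusted p = 0.345 and 0.29), both without overlap.

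Of 58 tested interferon-response genes, 55 had negative changes with WUSTL0717, although none passed the adjusted threshold. At an unadjusted p under 0.05, 30 were lower and 0 higher, against 2.75% lower over all genes, and the median was -0.92. In 8 of the 58 the treated libraries lay below the vehicle libraries (1.27% over all genes). This was so in 12 without WUSTL0717 library 2 (9.29% over all genes) and in 2 with each library centered, near the 2.03% over all genes in that setting. Without WUSTL0717 library 2, 24 were lower at an unadjusted p under 0.05 (1402 of all genes, 8.89%) and the median was -0.78. The count lay between 21 without vehicle library 3 and 37 without WUSTL0717 library 4. *Zbp1*, a sensor of Z-form nucleic acid, was 2.33, 4.27, 3.98 and 3.42 with vehicle and 1.68, 1.44, 1.34 and 2.22 with WUSTL0717, against 3.89, 4.08 and 4.88 in sham. Its change was -1.83 (limma adjusted p = 0.313). *Irf1*, a transcription factor of the interferon-γ response, was 4.91, 6.21, 7.44 and 5.83 with vehicle and 3.77, 3.53, 4.88 and 5.14 with WUSTL0717.

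In the interferon genes named here vehicle library 1 was the lowest of its group, and vehicle library 3 was the highest in all but *Zbp1*. The change of *Irf1* was -1.77 (limma adjusted p = 0.484). Among the immunity-related GTPases, which act on vacuoles of intracellular microbes, *Irgm1* changed by -1.45 and *Irgm2* by -2.34 (limma adjusted p = 0.508 and 0.501), and *Ifi47* by -1.73 (limma adjusted p = 0.422). *Irgm2* was 3.49, 5.89, 7.82 and 5.35 with vehicle and 3.21, 2.52, 3.44 and 4.02 with WUSTL0717. Sham libraries, at 5.11, 4.30 and 4.19, lay inside the vehicle range and above the treated libraries. The proteasome activator *Psme1* changed by -1.14 (limma adjusted p = 0.492).

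Of 9 tested class II histocompatibility genes, 0 were past an unadjusted p of 0.05 (2.75% lower over all genes) and the median was -1.14, or -0.64 without library 2. Without vehicle library 1, or without WUSTL0717 library 3, 6 were lower at an unadjusted p under 0.05, where 2.42% and 2.12% of all genes were. *H2-Aa*, an antigen-presenting chain, was 4.77, 7.27, 8.19 and 7.35 with vehicle and 5.48, 3.99, 6.69 and 5.55 with WUSTL0717. The groups overlapped through vehicle library 1, and the change was -1.47 (limma adjusted p = 0.747).

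Of 18 genes of Reg lectins and antimicrobial defense, 6 were lower and 0 higher at an unadjusted p under 0.05 (2.75% and 4.12% over all genes), with a median of -0.71. *Pigr*, the receptor that carries immunoglobulin A across the epithelium, was 8.53, 8.51, 9.36 and 8.71 with vehicle and 7.73, 6.53, 7.88 and 7.56 with WUSTL0717. The groups did not overlap, and the change was -1.35 (limma adjusted p = 0.445). *Duoxa2*, which matures the peroxide-generating oxidase DUOX2, was 4.51, 4.17, 3.88 and 3.62 with vehicle and 3.22, 1.84, 2.57 and 3.18 with WUSTL0717 (change -1.34, limma adjusted p = 0.417). *Duox2* itself changed by -0.73 and the bactericidal lectin *Reg3g* by -0.96 (limma adjusted p = 0.645 and 0.582). The count of lower genes in this list was 3 without WUSTL0717 library 3, with a median of -0.44, and between 4 and 8 without any other single library.

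All 20 tested genes of Paneth cells, which release antimicrobial peptides into the crypt, had negative changes, 7 at an unadjusted p under 0.05 (2.75% over all genes), and the median was -0.72. Without WUSTL0717 library 3 the count was 1 and the median -0.41, and without vehicle library 1 or 4 the count was 4. The summed TPM of the list was 26830, 19900, 30100 and 35610 with vehicle and 19500, 17960, 8426 and 22660 with WUSTL0717, against 37990, 32950 and 21890 in sham. Library 3 was therefore the lowest of all, and the groups overlapped. The α-defensin gene *Defa34* was 9.09, 8.97, 9.45 and 9.75 with vehicle and 8.60, 7.96, 7.09 and 8.70 with WUSTL0717 (change -1.23, limma adjusted p = 0.56). Defensin genes share long identical stretches, so their values may not be independent of each other.

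Of 14 tested markers of immune cells, 12 had negative changes. At an unadjusted p under 0.05, 5 were lower and 0 higher (2.75% and 4.12% over all genes), and 3 were lower without vehicle library 3. In 5 the treated libraries lay below the vehicle libraries (1.27% over all genes), but in 1 with each library centered (2.03% over all genes). The median was -0.28, and it lay between -0.12 without vehicle library 3 and -0.63 without WUSTL0717 library 3, with -0.49 without WUSTL0717 library 2, -0.46 without vehicle library 4 and -0.44 without vehicle library 1. The summed TPM of the 15 list members in the table was 246.5, 227, 366.7 and 219.3 with vehicle and 110.1, 170, 231.8 and 161 with WUSTL0717. Vehicle library 3, the highest of its group in many interferon genes, also had the highest marker sum of its group. The part of immune cell numbers in the interferon, class II and antibody values was not tested. *Gzma*, a protease of cytotoxic lymphocytes, was 2.43, 3.45, 3.08 and 3.17 with vehicle and 2.00, 1.65, 2.18 and 2.22 with WUSTL0717 (change -1.02, limma adjusted p = 0.417). *Igha*, the heavy chain of immunoglobulin A, changed by -1.18, its joining chain *Jchain* by -0.94 and the T cell receptor component *Cd3g* by -0.62 (limma adjusted p = 0.566, 0.583 and 0.583), each without overlap. A list of all immunoglobulin genes was made after their values were seen. Of its 180 tested genes 28 were lower and 1 higher at an unadjusted p under 0.05 (2.75% and 4.12% over all genes), with a median of -0.62. The lower count was 19 and the median -0.39 without vehicle library 3, and the count was 42 without vehicle library 2. Of these, 4 were among the 10 lower genes with the smallest p whose groups did not overlap. Of these 4, a kappa variable segment given here without its symbol changed by -2.09 and the kappa variable segment *Igkv2-112* by -1.95 (limma adjusted p = 0.114 and 0.232), and the joining segments *Iglj3* and *Ighj2* by -1.86 and -1.80 (limma adjusted p = 0.157 and 0.284). *Iglj3* passed the adjusted threshold without WUSTL0717 library 1. Treated values were low, between -0.92 and 0.855 for *Iglj3* and between -0.54 and 1.29 for *Igkv2-112*, so these changes are less certain.

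**Figure D3:**
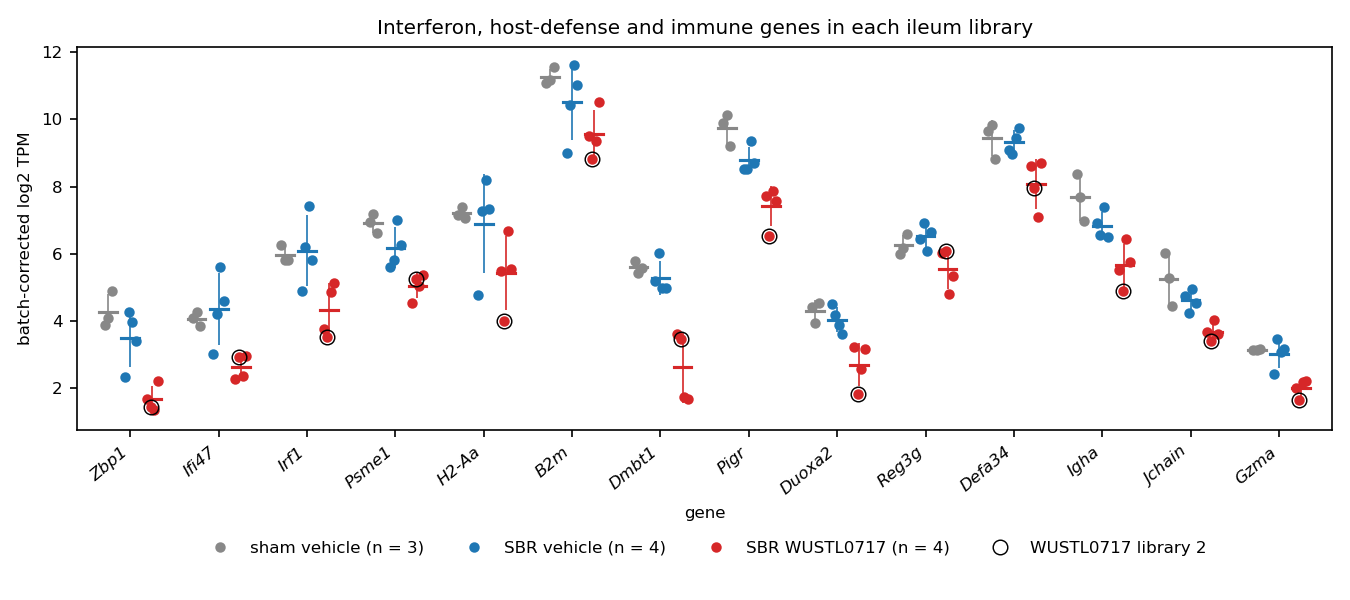
Batch-corrected log2 TPM (vertical axis) of 14 interferon, host-defense and immune genes (horizontal axis) in each ileum library, with grey for sham vehicle, blue for SBR vehicle and red for SBR WUSTL0717. Points are libraries, short bars are means, vertical lines are the SD and rings mark WUSTL0717 library 2. The treated points of *Dmbt1* lie between 1.67 and 3.61, below all vehicle and sham points, whereas those of *H2-Aa* and *B2m* overlap the vehicle points.

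WUSTL0717 library 2 was the highest ileum library in many markers of other tissues. Its median log2 TPM was 3.85, against 3.20 to 3.58 in the other 10 ileum libraries. The part of a general shift in these marker levels was not tested. Of 34 hepatocyte markers, 22 were highest in this library, and their summed TPM was 23790 there against 1930 to 5227 in the other 10 ileum libraries. With WUSTL0717, 5 of the 34 were higher and 1 lower at an unadjusted p under 0.05 (4.12% and 2.75% over all genes). These counts were the same without library 2 (4.5% and 8.89% over all genes), and 3 were higher without vehicle library 2. None passed the adjusted threshold. The median change was 0.43, and -2.2e-05 without library 2. Albumin (*Alb*) was 12.70 in library 2 and between 8.47 and 10.13 elsewhere. Hemopexin (*Hpx*) was 11.35 there and between 5.08 and 7.39 elsewhere. Neither marker was near 0 in any ileum library, and the part in these levels of the batch correction, which took intestine and liver as separate batches, was not tested. Of 7 adipocyte markers, 5 were highest in library 2, with a summed TPM of 3267 against 205.9 to 1832 elsewhere. It was also highest in 8 of 12 smooth muscle markers, with a sum of 582.1 against 558.4 in sham library 3, in 6 of 12 fibroblast and endothelial markers, in 5 of 8 ileal enterocyte markers and in 5 of 12 epithelial markers. None of the 7 adipocyte markers passed the adjusted threshold, and 4 were higher at an unadjusted p under 0.05 (4.12% over all genes), or 3 without library 2 (4.5% over all genes) and 6 without vehicle library 1. Their median change was 1.24, and 1.06 without library 2. Their sums overlapped, with 1563, 1832 and 1206 in treated libraries 1, 3 and 4 and 1519, 205.9, 1165 and 665.8 with vehicle, and *Fabp4* was 3.79, 3.54 and 3.71 against 2.33 to 3.03.

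*Fasn*, *Acaca*, *Acly*, *Thrsp* and *Lpl*, which hepatocytes or adipocytes also express, were all highest in library 2, and their changes were lower without it, that of *Acly* turning negative, as given above. The part of such cells in these values was not tested. *H2-Q10*, which hepatocytes express strongly, was 7.22, 7.13 and 7.66 in the other 3 treated libraries and 7.61 in library 2. Without library 2, 710 genes were higher (4.5%) and 1402 lower (8.89%) at an unadjusted p under 0.05, and 9 genes passed the adjusted threshold, 8 higher and 1 lower, and 7 of these were among the 11. The 2 that were added were *Ttc39b*, lower, and *Gm6951*, higher, with 1.96, 1.72, 1.99 and 1.41 under vehicle and 4.77, 6.20, 3.85 and 3.68 under WUSTL0717. The median change over all genes went from 0.00312 to -0.12 without library 2, so small differences are read against that shift.

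**Figure D4:**
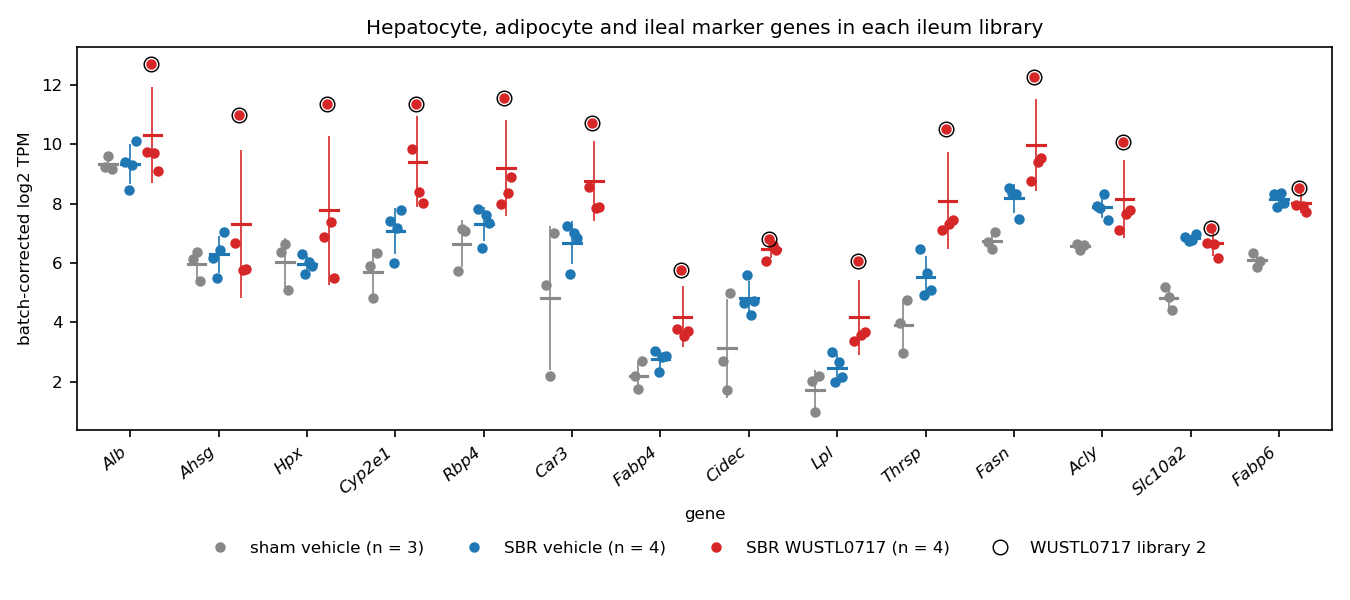
Batch-corrected log2 TPM (vertical axis) of 14 hepatocyte, adipocyte, lipogenic and ileal marker genes (horizontal axis) in each ileum library, with grey for sham vehicle, blue for SBR vehicle and red for SBR WUSTL0717. Points are libraries, short bars are means, vertical lines are the SD and rings mark WUSTL0717 library 2. The ringed library is the highest point for *Alb*, *Ahsg*, *Hpx*, *Fasn* and *Acly*, whereas the 8 SBR libraries lie between 6.15 and 7.19 for *Slc10a2* and between 7.71 and 8.54 for *Fabp6*.

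The treatment effect in the ileum was compared with that in the duodenum of SBR mice, again 4 libraries of each treatment, as the difference between the effects in 1 limma fit of the 22 intestinal libraries. The labels do not give which duodenum and ileum libraries came from the same mouse. Of 14924 genes tested in both regions, 4 differed past an adjusted p of 0.05 (0.0268%) and 475 at an unadjusted p under 0.05 (3.18%). The 4 were the hydrolase *Ephx1*, the acyl-CoA thioesterase *Acot1*, the ω-hydroxylase *Cyp4a31* and the glucuronosyltransferase *Ugt1a9*, and each had a large change in the duodenum and a change near 0 in the ileum. *Ephx1* changed by 3.77 in the duodenum and 0.27 in the ileum (difference -3.50, limma adjusted p = 0.0103). *Acot1* changed by 3.50 and 0.34 (difference -3.16, limma adjusted p = 0.0112), and *Ugt1a9* by 2.54 and 0.05 (difference -2.49, limma adjusted p = 0.0424). Other genes of the *Ugt1a* family overlap *Ugt1a9* on the same strand, so their reads may not be separable. *Cyp4a31* changed by 3.07 and 0.06 (difference -3.01, limma adjusted p = 0.00105), with 8 of the 11 ileum libraries at one shared lowest value of 1.33.

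For the 11 genes that rose in the ileum, the difference between regions did not pass (limma adjusted p of at least 0.364). *H2-Q10* changed by 2.78 in the ileum and 2.74 in the duodenum (difference 0.04, SE 0.47). *Acsl3* changed by 1.81 and 1.88, *Srebf1* by 3.39 and 3.13, and *Abca1* by 2.79 and 3.55. *Scd1* changed by 3.09 in the ileum and 6.34 in the duodenum (difference -3.25, limma adjusted p = 0.364). *Apoc1* went the other way, with 3.62 in the ileum and 1.00 in the duodenum (difference 2.62, limma adjusted p = 0.594). *Dmbt1* changed by -2.66 in the ileum and -0.31 in the duodenum (difference -2.35, limma adjusted p = 0.975), and *Ttc39b* by -1.47 and 0.40 (difference -1.87, limma adjusted p = 0.843). The unadjusted p-values of these differences in the limma fit were 0.000315 for *Scd1*, 0.000787 for *Apoc1*, 0.00608 for *Dmbt1* and 0.00226 for *Ttc39b*, so they missed the threshold after adjustment over the 14924 genes.

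**Figure D5:**
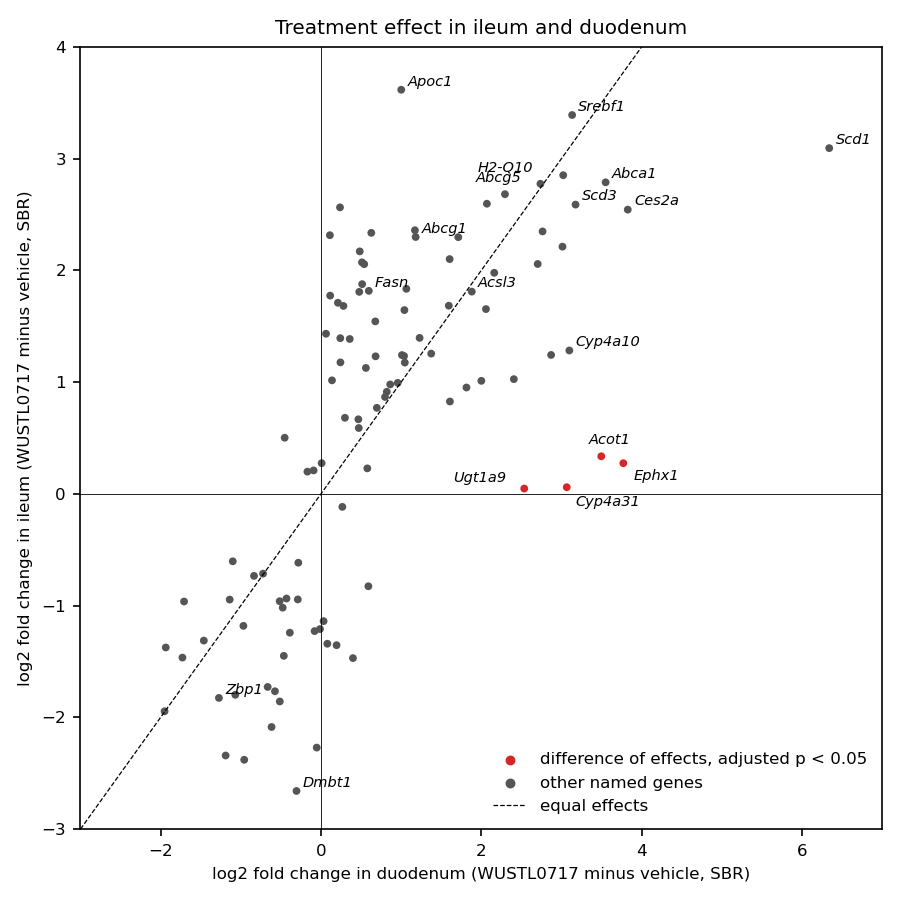
Log2 fold change of WUSTL0717 over vehicle after SBR in the duodenum (horizontal axis) and the ileum (vertical axis) for the genes named in the text that were tested in both regions, each point 1 gene. The dashed line marks equal effects, and red marks the 4 genes whose effects differed past an adjusted p of 0.05. These 4 lie between 2.54 and 3.77 on the duodenum axis and between 0.05 and 0.34 on the ileum axis.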

How the data were processed

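RNA was extracted from duodenum, ileum and liver, and ribosomal RNA was removed before random-primed library preparation. The authors aligned reads to GRCm38 with STAR, counted them per gene with featureCounts, took log2 of TPM, corrected batches with ComBat (intestine as batch 1 and liver as batch 2) and deposited 1 table of these log2 values for 15958 genes, between -1.688 and 18.421. The pseudocount of their log2 scale is not given in the sources used here. The correction can shift and stretch a gene's values, so levels of different tissues were set side by side only to identify the tissue.

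Genes with a mean of at least 1 over the 11 ileum libraries entered a limma fit (version 3.58.1, R 4.3.3) of the 3 ileum groups that used a variance trend, and p-values were adjusted over all genes by the Benjamini-Hochberg procedure. The difference between regions was an interaction term in a fit of 22 intestinal libraries. With 4 libraries against 4 an exact permutation test cannot give a p below 0.0286. The fits were tested on simulated data with known changes. Promoters and figures were handled in Python 3.11.15 with pandas 2.3.3, numpy 2.4.6 and matplotlib 3.10.9, and coordinates come from the GRCm38 annotation.

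The genes and lists were chosen with earlier results of these data known. The genes named are all that passed, the 10 in each direction with the smallest p whose groups did not overlap (unnamed transcripts left out, and 1 immunoglobulin segment given without its symbol), the genes the study names for ileal sequencing, up to 4 members of each list and those that show which end of a pathway moved, genes whose effect differed between regions, markers highest in WUSTL0717 library 2, and genes that passed without that library but not in the main fit. Replicate numbers were not taken as pairs in the main fit, and the closing section gives correlations between libraries by number. Alternatives were no filter, a filter at 3, pseudocounts of 5 and 0.1, centering, quantile normalization, an unmoderated test, no variance trend, library weights, the compared groups alone, a replicate block, the heatmap thresholds of the study (unadjusted p, here from limma, and a fold change of 2), and leaving out each library.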

Additional observations from a re-analysis of the deposited data

Results flagged for a closer look

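In groups of 4 libraries, 1 library stood far from the other 3 in 22 of 226 groups of values examined, where chance gives about 1 in 20 (5%). The genes examined were chosen partly as markers highest in WUSTL0717 library 2, so the number cannot be read against that rate. In 11 of the 22 the library was WUSTL0717 library 2. There *Scd3* was 6.46 (4.69 to 4.99 in the other 3), *Lpl* 6.06 (3.36 to 3.68), *Acaca* 7.91 (5.27 to 5.72), *Elovl5* 9.30 (7.92 to 8.02), *Elovl6* 4.81 (3.62 to 3.73), *Thrsp* 10.5 (7.11 to 7.45), *Ttc39b* 3.30 (1.94 to 2.08), *Ephx1* 6.60 (5.44 to 5.64) and *Fabp4* 5.75 (3.54 to 3.79). The mean log2 TPM of the hepatocyte markers was 7.41 (5.72 to 5.87) and that of the adipocyte markers also 7.41 (5.87 to 6.06).

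Among vehicle libraries, *Abca1* was 4.07 and *Nr0b2* 0.946 in library 2, *Utp14b* was 3.41 in library 1, and *Elovl5* was 7.64 in library 3. In vehicle library 4 *Srebf1* was 4.96, *Cyp4a10* 4.17 and *Cyp4a31* 1.38. Among treated libraries, *Retsat* was 5.40 and *Iglj3* -0.917 in library 1, and *Bco2* was 3.04 and *Arntl* 2.37 in library 4.

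The treatment effect differed between ileum and duodenum by -3.01 in *Cyp4a31*, -3.50 in *Ephx1*, -3.16 in *Acot1* and -2.49 in *Ugt1a9* (limma interaction, adjusted p = 0.00105, 0.0103, 0.0112 and 0.0424). *Ephx1* is the 1 of these 4 in which WUSTL0717 library 2 also stood apart, and its ileum change without that library was 0.02.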

How the results depend on the processing

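The 11 higher and 0 lower genes became 15 with a filter at 3 (2 lower), 13 with a pseudocount of 5 (2 lower), 13 with each library centered or with quantile normalization (1 lower in both), and 18 with library weights (5 lower). With the heatmap thresholds of the study set on the limma p, and not on the study's own test, 491 passed (304 higher, 187 lower). Only *H2-Q10* (1 gene, higher) passed with the unmoderated test, with the compared groups alone, and with the replicate block. Leaving out single libraries gave between 2 and 12 genes, between 2 and 10 higher and between 0 and 2 lower. Without a filter 8 passed, and with a pseudocount of 0.1 or no variance trend 11 passed. Some of these fits held fewer libraries or genes, and where counts moved the cause was not tested.

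The 4 genes that differed between regions became 1 with a filter at 3, 11 with library weights, 3 with the replicate block and 3 or 4 with any of the 16 SBR libraries left out. *Acly* was reversed to -0.19 with library weights. When single libraries were left out, the change of *Acly* lay between -0.37 and 0.62, *Mttp* between -0.14 and 0.42, *Gata4* between -0.23 and 1.04, *Ugt1a9* between -0.013 and 0.12 and *Ahsg* between -0.21 and 1.53. Deviations of vehicle and treated libraries with the same number correlated at -0.04, -0.32, -0.01 and -0.03. Those with unlike numbers correlated between -0.246 and 0.247. The labels do not say whether libraries with the same number belong together, and so few correlations cannot decide it. Because depth is unknown, differences at low values such as *Cyp4a31* are less certain.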

Other observations

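Of 19 tested clock genes, 0 passed the adjusted threshold in limma. At an unadjusted p under 0.05, 4 were higher and 4 lower (4.12% and 2.75% over all genes), and the lower count was between 1 and 4 and the higher count between 2 and 5 when single libraries were left out (1 lower without sham library 1, vehicle library 4 or WUSTL0717 library 1, and 2 higher without WUSTL0717 library 1 or 4). *Bhlhe40*, a transcriptional repressor in the clock, was 4.98, 4.93, 5.16 and 4.12 with vehicle and 5.61, 6.99, 5.63 and 7.14 with WUSTL0717 (change 1.54, limma adjusted p = 0.422). The activator *Arntl* changed by 0.77 and the repressor *Ciart* by -1.37 (limma adjusted p = 0.56 and 0.582). The methods place procedures in the light phase and give no hour.

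*Gata4*, a transcription factor of the proximal small bowel, was 4.68, 5.05 and 4.83 in sham, 3.34, 3.77, 1.42 and 2.29 with vehicle and 3.44, 0.42, 3.56 and 4.24 with WUSTL0717. All SBR libraries lay below the sham libraries, and the change with treatment was 0.21 (SE 0.73).

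*Tat*, a tyrosine-degrading enzyme listed here as a hepatocyte marker, was 9.60, 8.78, 8.24 and 10.38 with vehicle and 7.80, 8.37, 6.06 and 5.69 with WUSTL0717 (change -2.27, limma adjusted p = 0.484), whereas the hepatocyte marker *Cyp2e1* was 7.41, 6.00, 7.16 and 7.80 with vehicle and 9.86, 11.37, 8.39 and 8.02 with WUSTL0717 (change 2.32, limma adjusted p = 0.492).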
